A study of Mus musculus with 18 samples.

Results

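Translation initiation factors are the proteins that bring the ribosome, the initiator tRNA and the mRNA together before the first peptide bond is made. Their transcripts were measured by RNA sequencing in splenic B cells of MRL/lpr mice, a lupus-prone strain with the lpr mutation of Fas. The members were taken by symbol: every gene row starting with Eif1 to Eif6 was used, except the eIF2 kinases (Eif2ak) and the X- and Y-linked genes of the eIF2 γ subunit (Eif2s3x and Eif2s3y). This gave 53 of 23420 rows. Of these, 49 were genes of initiation factors, their paralogs or their binding proteins. The other 4, Eif2c1 to Eif2c4, are older symbols of the Argonaute genes Ago1 to Ago4, whose proteins carry microRNAs. They were counted with the members because the rule took them, and were described separately.

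The 18 libraries formed 6 groups of 3. All mice had that mutation and were 5 to 7 weeks old, and the B cells were purified with beads by removing other cells. In the first arm the mice were female and all Tlr7-/-. Their B cells carried either Tlr997, a TLR9 whose intracellular TIR signaling domain had been replaced by that of TLR7, or 1 copy of wild-type Tlr9 (Tlr9+/-, here Tlr9het). They were left unstimulated or were given 10 µg/ml of CpG (ODN 1826), a TLR9 agonist, for 4 h. The library titles name the controls Tlr9het, whereas the treatment protocol calls them Tlr9-/-, and the titles were followed. In the second arm the mice were male, Tlr9-/- and carried Tlr779, a TLR7 with the TIR domain of TLR9, and the cells were left unstimulated or were given 5 µg/ml of the TLR7 agonist CL097 for 4 h. A control genotype of the second arm was not analysed here. Genotype, sex and agonist all differed between the arms, so their effects cannot be told apart, and responses to CpG and to CL097 are given side by side only. Both chimeras were knocked into the germline, so every cell type of the donor mice carried them.

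In cap-dependent initiation, eIF4E binds the mRNA cap, eIF4G is the scaffold that joins it to the RNA helicase eIF4A, and 4E-binding proteins compete with eIF4G for eIF4E. On the small ribosomal subunit, eIF1, eIF1A, eIF3 and eIF5 gather around the ternary complex of eIF2, GTP and initiator tRNA, and eIF2B recharges eIF2 with GTP after each round. Resting B cells are small and make little protein, and the synthesis of ribosomes and translation factors is a known part of their activation.

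Values are log2 CPM, the log2 of counts scaled to a common library size (CPM), as the authors' normalization left them. The files gave no counts, so the depth of each library is unknown. The values of a library are shares of its RNA, and the amount of RNA per cell was not measured. Of the 53 members, 50 had more than 0 log2 CPM in at least 3 libraries and were tested, namely 46 factor genes and the 4 Argonaute genes. Eif3j1 and Eif4e1b stood at -5.05 log2 CPM in all 18 libraries, and Eif3j2 lay between -5.19 and -2.24. Eif3j1 and Eif3j2 are near-identical copies of the gene for a loosely bound eIF3 subunit. Counting that drops reads shared by copies could empty both rows, but this was not tested. A gene is called here, as rising or falling, where the adjusted p was under 0.05 and the log2 fold change was beyond 0.5 in either direction. Groups are said not to overlap where every library of one lay above every library of the other. This was common: it held for 80.1% of all tested genes with CpG in Tlr9het, 71.2% in Tlr997 and 67.8% with CL097.

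With CpG, 27 factor genes rose and 2 fell in Tlr9het B cells, and 26 rose and 2 fell in Tlr997 B cells. With CL097, 22 rose and 1 fell in Tlr779 B cells. Including the Argonaute genes, 31 of 50 members were called with CpG in Tlr9het, 30 in Tlr997 and 25 with CL097 in Tlr779. The response of these cells was broad, and the share of all tested genes that was called was 57.9% in Tlr9het, 55.6% in Tlr997 and 46.3% in Tlr779, so the share of members called was near the background. The direction was less even than the background: 54% of the members rose in Tlr9het against 29.7% of all genes, 52% against 29.6% in Tlr997 and 44% against 22.7% in Tlr779. Members that fell made up 8%, 8% and 6%, against 28.2%, 26% and 23.6% of all genes. The median log2 fold change of the 46 factor genes was 0.70 in Tlr9het, 0.68 in Tlr997 and 0.48 in Tlr779, beside medians of 0.04, 0.07 and -0.02 over all genes tested.

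The same 21 members rose in all 3 responses, 2 Argonaute genes fell in all 3, and 15 members were called in none. Such overlaps were not counted over all genes, of which 57.9%, 55.6% and 46.3% were called in the 3 responses. The overlap is therefore not read as particular to the members. No member was called in opposite directions. Some changes under the fold threshold still had an adjusted p under 0.05. Regardless of fold, this held for 44 members (88%) in Tlr9het, 34 of them upward, beside 72.7% of all genes.

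**Figure D1:**
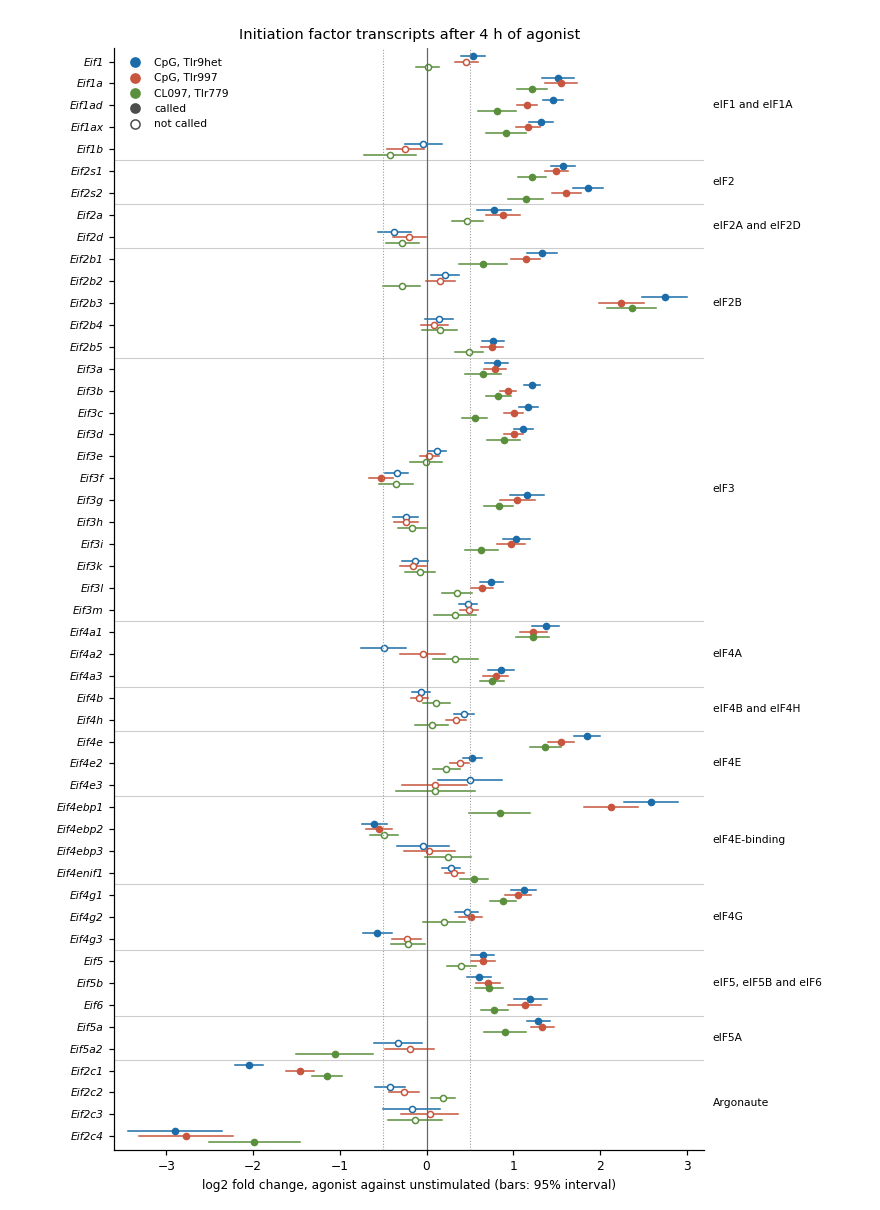
Log2 fold change of the 50 tested members with agonist against unstimulated cells (x axis, with 95% intervals), ordered by factor complex, in Tlr9het with CpG, Tlr997 with CpG and Tlr779 with CL097. Filled points were called, open points were not, and dotted lines mark 0.5 in either direction. Most points lie to the right of 0, Eif2b3 and Eif4ebp1 lie farthest right with CpG, and Eif2c1 and Eif2c4 lie farthest left.

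The B cell identity of the libraries was checked with 5 markers (Ms4a1, Cd79a, Cd79b, Pax5 and Cd22). Their summed level was 4869 to 6552 CPM without agonist. It was lower with agonist, at 1155 to 1211 CPM in Tlr9het, 2025 to 2482 CPM in Tlr997 and 1792 to 2481 CPM in Tlr779. Markers of other cells had lower sums than these in every library, and in Tlr9het they moved less or in the other direction. T cell markers summed to 3.64 to 9.41 CPM in resting Tlr9het and 9.56 to 21.2 CPM with CpG, and 5 of the list of 6 were measured. Macrophage and monocyte markers (4 of 5 measured) went from 168 to 215 CPM down to 106 to 118 CPM in Tlr9het. In Tlr779 they went from 152 to 395 CPM down to 62.2 to 147 CPM, a fall similar in proportion to that of the B cell markers. Plasmacytoid dendritic cell markers went from 381 to 415 CPM down to 177 to 184 CPM in Tlr9het. Neutrophil, NK cell and plasma cell markers did not exceed 219 CPM, and erythroid markers ranged from 12.3 to 484 CPM over all libraries. The part of these shifts in the results below was not tested. Fewer cells of a type and less RNA per cell cannot be told apart in such bulk samples. Correlation with the other libraries of the group averaged 0.949 to 0.989, and it was lowest for replicate 3 of unstimulated Tlr997.

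Transcripts of the cap-binding complex were among the members that rose. Eif4e encodes the cap-binding protein. It stood at 6.55, 6.60 and 6.49 log2 CPM in the 3 resting Tlr9het libraries and at 8.31, 8.46 and 8.43 with CpG. In Tlr997 the values were 6.67, 6.77 and 6.92 at rest and 8.28, 8.42 and 8.32 with CpG, and in Tlr779 they were 6.53, 6.70 and 6.64 at rest and 8.09, 7.996 and 7.89 with CL097. Every stimulated library lay above every resting one. The rise was 3.62-fold in Tlr9het (log2 1.86 ± 0.07 SE, adjusted p = 4.9e-11), 2.94-fold in Tlr997 and 2.58-fold in Tlr779.

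Eif4a1 encodes the main cytoplasmic form of the eIF4A helicase, which unwinds the mRNA leader. Its level in Tlr9het was 9.44, 9.45 and 9.46 log2 CPM at rest and 10.81, 10.89 and 10.76 with CpG, in Tlr997 9.39, 9.62 and 9.66 and 10.68, 10.84 and 10.85, and in Tlr779 9.39, 9.44 and 9.301 at rest and 10.74, 10.57 and 10.50 with CL097. It rose 2.59-fold, 2.35-fold and 2.34-fold, with no overlap between groups. Eif4g1, the main eIF4G scaffold, read 9.78, 9.72 and 9.73 log2 CPM in resting Tlr9het cells and 10.97, 10.79 and 10.81 with CpG. The values were 9.55, 9.76 and 9.68 and 10.63, 10.73 and 10.79 in Tlr997, and 9.53, 9.45 and 9.42 and 10.39, 10.34 and 10.31 in Tlr779. These were rises of 2.17-fold (log2 1.12 ± 0.07 SE), 2.08-fold and 1.84-fold, again without overlap.

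Other members of the same families moved less. Eif4a3 encodes the helicase of the exon junction complex rather than a cap-binding subunit. Its values were 7.304, 7.42 and 7.51 log2 CPM in resting and 8.21, 8.28 and 8.32 in CpG-treated Tlr9het cells, 7.55, 7.55 and 7.35 and 8.32, 8.23 and 8.29 in Tlr997, and 7.38, 7.48 and 7.47 and 8.25, 8.18 and 8.17 in Tlr779 without and with CL097. It rose 1.81-fold, 1.74-fold and 1.69-fold. Eif4a2, the second cytoplasmic eIF4A, was called in none of the responses. It read 9.19, 9.12 and 9.13 log2 CPM at rest and 8.69, 8.67 and 8.59 with CpG in Tlr9het, 8.74, 8.67 and 9.08 and 8.53, 8.75 and 9.07 in Tlr997, and 8.77, 8.57 and 8.68 and 9.08, 9.17 and 8.77 in Tlr779. The Tlr9het groups did not overlap, with CpG lower (log2 -0.49 ± 0.12 SE, adjusted p = 0.0022), and leaving out 1 of 4 of these libraries in turn brought it just past the fold threshold, to at most -0.51. In Tlr997 and Tlr779 its groups overlapped.

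Eif4e2 encodes a cap-binding homolog linked to translational repression. Its values in Tlr9het were 6.72, 6.69 and 6.79 log2 CPM at rest and 7.22, 7.26 and 7.29 with CpG, in Tlr997 6.82, 6.81 and 6.71 and 7.13, 7.17 and 7.19, and in Tlr779 6.58, 6.69 and 6.74 and 6.91, 6.90 and 6.88. It was called only in Tlr9het (1.44-fold), while the log2 changes of 0.38 in Tlr997 and 0.23 in Tlr779 were under the fold threshold. Between the CpG responses of Tlr997 and Tlr9het its difference was -0.15 (95% interval -0.30 to 0.01) and was not called. Eif4e3, another cap-binding homolog, was low and variable, at 3.63, 3.60 and 4.21 log2 CPM at rest and 4.23, 4.15 and 4.56 with CpG in Tlr9het, 3.86, 3.97 and 4.26 and 4.19, 4.17 and 4.01 in Tlr997, and 3.71, 4.11 and 3.54 and 3.95, 4.14 and 3.58 in Tlr779. Its groups overlapped in all 3 responses, and its change in Tlr9het, just under the fold threshold, passed it without replicate 3 at rest (0.70) or replicate 1 or 2 with CpG (0.54 and 0.58).

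Eif4g3 encodes a second scaffold. It was the only eIF4G gene that fell, from 8.75, 8.62 and 8.67 log2 CPM to 8.16, 8.06 and 8.12 in Tlr9het (1.48-fold lower, log2 -0.57 ± 0.08 SE, adjusted p = 1.8e-05). Its values in Tlr997 were 8.40, 8.58 and 8.70 at rest and 8.21, 8.32 and 8.46 with CpG, and in Tlr779 8.57, 8.30 and 8.41 and 8.30, 8.14 and 8.20 with CL097. Both of those pairs of groups overlapped and neither change was called. Eif4g2, which lacks the eIF4E-binding site and acts in cap-independent initiation, had log2 changes of 0.46, 0.51 and 0.20, of which the middle one, in Tlr997, was called, though not without Tlr997 replicate 1 at rest (0.45) or replicate 2 with CpG (0.46).

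Neither of the 2 cofactors of the helicase was called. Eif4b stood at 9.77, 9.71 and 9.76 log2 CPM at rest and 9.68, 9.66 and 9.71 with CpG in Tlr9het, at 9.77, 9.76 and 9.66 and 9.65, 9.65 and 9.64 in Tlr997, and at 9.83, 9.86 and 9.71 and 9.91, 9.94 and 9.89 in Tlr779. Its log2 change lay between -0.08 and 0.11 and was not called, with a 95% interval of -0.16 to 0.04 in Tlr9het. Eif4h read 8.002, 7.97 and 8.07 and 8.42, 8.43 and 8.48 in Tlr9het, 8.08, 8.10 and 7.94 and 8.42, 8.40 and 8.34 in Tlr997, and 7.99, 8.20 and 8.12 and 8.16, 8.06 and 8.28 in Tlr779. It was higher with CpG in both genotypes without overlap, by 0.43 ± 0.05 SE (adjusted p = 7.2e-06) and 0.34 ± 0.05 SE (adjusted p = 6e-05), both under the fold threshold.

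**Figure D2:**
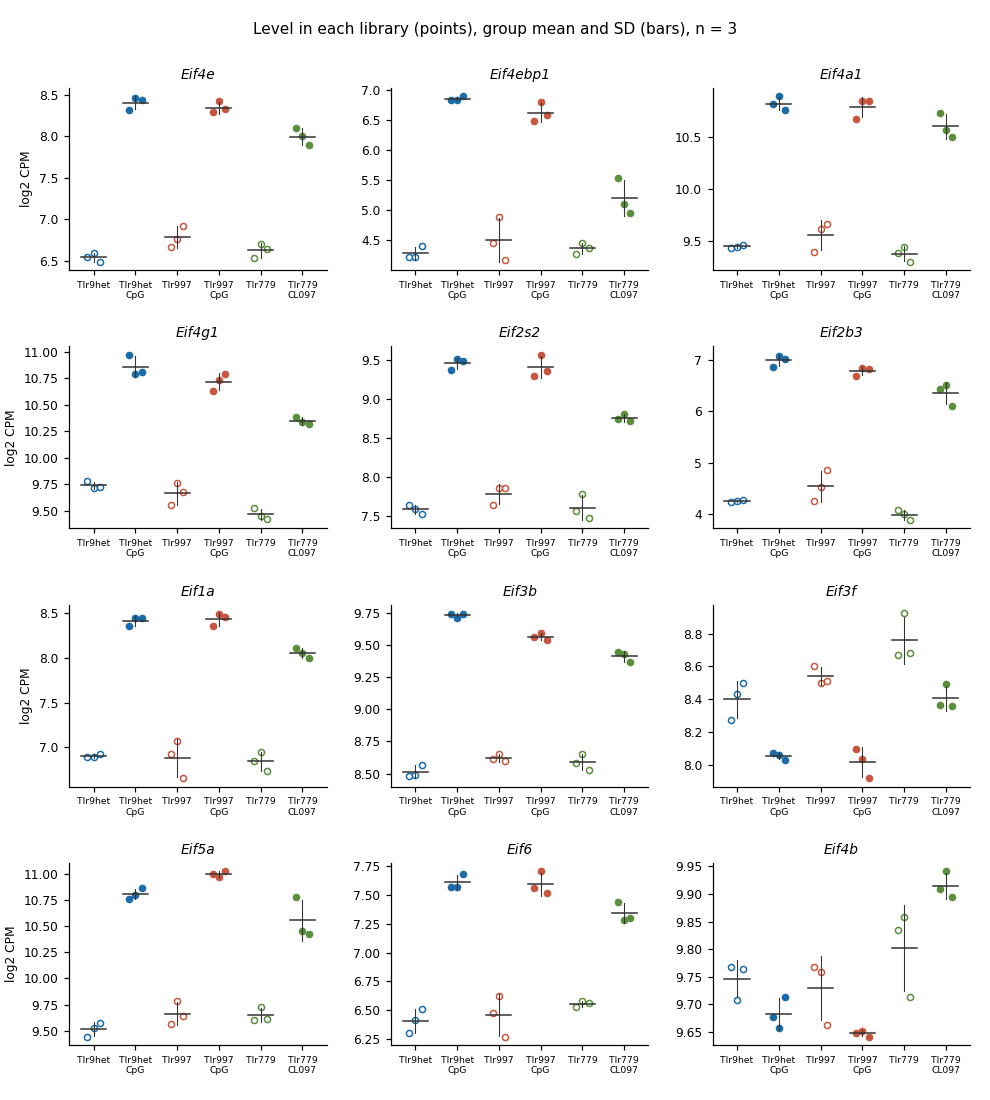
Level of 12 members in each of the 18 libraries (points, log2 CPM), with the mean and SD of each group of 3 (bars). Open points are unstimulated libraries and filled points had CpG or CL097. Each panel has its own y axis, which does not start at 0. In 10 of the 12 panels the filled points lie above the open points of the same genotype, in the Eif3f panel they lie below, and for Eif4b the change is small.

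The 4E-binding proteins, which hold eIF4E back from eIF4G until mTORC1 phosphorylates them, went in opposite directions. Eif4ebp1 had the second largest rise of all members in Tlr9het, from 4.22, 4.22 and 4.40 log2 CPM to 6.85, 6.84 and 6.90 with CpG. It went from 4.45, 4.89 and 4.17 to 6.50, 6.80 and 6.58 in Tlr997 and from 4.26, 4.45 and 4.37 to 5.54, 5.11 and 4.96 with CL097 in Tlr779. The groups did not overlap in any of the 3. The rises were 6.01-fold (log2 2.59 ± 0.14 SE, adjusted p = 2e-09), 4.36-fold and 1.79-fold (log2 0.84 ± 0.15 SE). Eif4ebp2 fell in both CpG responses. Its values in Tlr9het were 7.28, 7.33 and 7.34 log2 CPM at rest and 6.65, 6.71 and 6.79 with CpG, in Tlr997 7.38, 7.26 and 7.31 and 6.92, 6.70 and 6.68, and in Tlr779 7.51, 7.69 and 7.52 and 7.08, 7.08 and 7.09. The log2 changes were -0.60, -0.55 and -0.49, the last just under the fold threshold and past it without replicate 1 or 3 of unstimulated Tlr779 (-0.52 in each). Eif4ebp3 was not called in any response. Eif4enif1, which encodes the protein 4E-T that carries eIF4E into the nucleus and into processing bodies, rose with CL097 alone (1.46-fold), and its CpG changes of 0.28 and 0.32 were under the fold threshold.

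Both measured subunits of eIF2, which delivers the initiator tRNA, rose in all 3 responses. Eif2s1 encodes eIF2α, the subunit that stress kinases phosphorylate. It read 7.32, 7.38 and 7.35 log2 CPM at rest and 8.86, 9.01 and 8.91 with CpG in Tlr9het, 7.45, 7.51 and 7.34 and 8.82, 9.01 and 8.97 in Tlr997, and 7.33, 7.47 and 7.33 and 8.55, 8.66 and 8.56 with CL097 in Tlr779. These were rises of 2.98-fold, 2.83-fold and 2.32-fold without overlap. Eif2s2 encodes eIF2β, which contacts eIF5 and eIF2B. It went from 7.65, 7.60 and 7.53 to 9.37, 9.51 and 9.48 in Tlr9het, from 7.64, 7.87 and 7.86 to 9.29, 9.56 and 9.36 in Tlr997, and from 7.57, 7.79 and 7.48 to 8.74, 8.81 and 8.72 in Tlr779. This was 3.64-fold (log2 1.86 ± 0.08 SE, adjusted p = 1.4e-10), 3.06-fold and 2.21-fold.

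The 5 subunits of eIF2B, the exchange factor for eIF2, changed very unequally. Eif2b3, the γ subunit, had the largest rise of all members in each of the 3 responses. It stood at 4.23, 4.25 and 4.27 log2 CPM in resting Tlr9het cells and at 6.87, 7.08 and 7.02 with CpG, at 4.24, 4.52 and 4.85 and 6.69, 6.84 and 6.83 in Tlr997, and at 4.08, 4.00 and 3.88 and 6.44, 6.51 and 6.10 in Tlr779. No stimulated library reached down to a resting one. The rise was 6.7-fold in Tlr9het (log2 2.74 ± 0.12 SE, adjusted p = 2.1e-10), 4.75-fold in Tlr997 and 5.15-fold in Tlr779. Eif2b1, the regulatory α subunit, went from 4.50, 4.81 and 4.68 to 5.999, 5.997 and 5.98 in Tlr9het, from 4.72, 4.78 and 4.76 to 5.92, 5.84 and 5.92 in Tlr997 and from 4.60, 4.66 and 4.93 to 5.54, 5.31 and 5.31 in Tlr779, which was 2.52-fold, 2.21-fold and 1.57-fold. Eif2b5, the catalytic ε subunit, rose 1.7-fold and 1.69-fold with CpG and was just under the threshold with CL097 (log2 0.49), past it without CL097 replicate 3 (0.53) or resting replicate 2 or 3 (0.51 in each). Eif2b2 and Eif2b4, the β and δ subunits, were not called, with log2 changes between -0.29 and 0.21.

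Scaled to exon length, Eif2b3 was the lowest eIF2B subunit in resting Tlr9het cells, at 2.91 CPM per kb, and Eif2b5 was the highest at 39.3. With CpG the levels were 19.5 for Eif2b3, 15.3 for Eif2b4, 24.7 for Eif2b1, 32.4 for Eif2b2 and 67.0 for Eif2b5. On a log scale this was a narrower range. The range narrowed with CL097 too, where Eif2b3 went from 2.43 to 12.5 CPM per kb. There Eif2b3 remained the lowest subunit, below Eif2b4 at 16.1, and Eif2b5 was the highest at 56.7. Length here is the union of annotated exons, which need not be the transcript that these cells use.

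**Figure D3:**
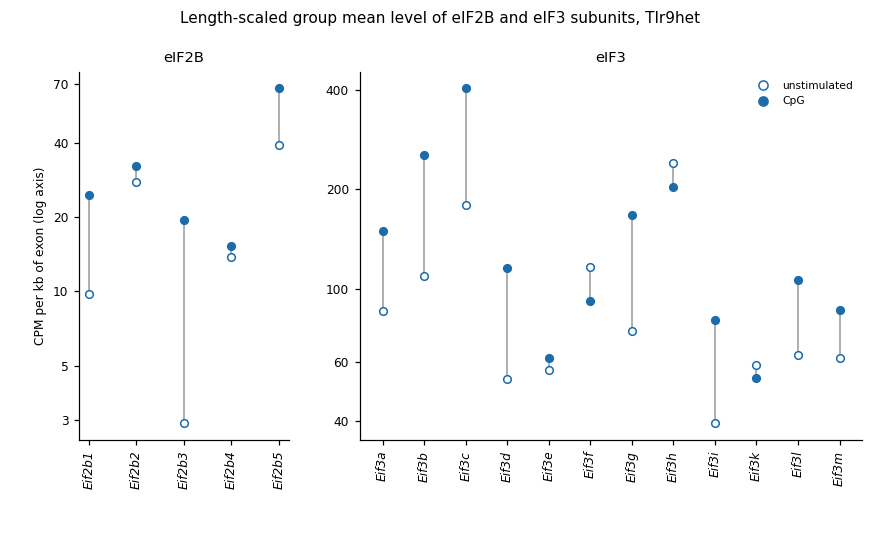
Group mean level of the 5 eIF2B subunits and of 12 eIF3 subunits in Tlr9het B cells, in CPM per kb of exon on a log axis, unstimulated (open) and with CpG (filled). Eif2b3 moves from 2.91, the lowest of its complex, to 19.5, while Eif3e, Eif3f, Eif3h and Eif3k change little beside Eif3b and Eif3c.

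Eif2a and Eif2d encode monomeric proteins that can deliver tRNA without eIF2, and Eif2a should not be confused with eIF2α. Eif2a read 6.30, 6.14 and 6.19 log2 CPM and 6.89, 7.04 and 7.05 with CpG in Tlr9het, 6.17, 6.31 and 5.89 and 6.96, 7.04 and 7.03 in Tlr997, and 6.18, 6.24 and 6.37 and 6.72, 6.67 and 6.81 in Tlr779. It rose 1.72-fold and 1.84-fold with CpG, and its change of 0.47 with CL097 was under the fold threshold, but past it without CL097 replicate 2 (0.50) or resting replicate 3 (0.53). Eif2d was called in none, at 5.16, 4.93 and 5.14 and 4.62, 4.69 and 4.80 in Tlr9het, 5.06, 5.08 and 5.04 and 4.76, 4.86 and 4.96 in Tlr997, and 5.33, 5.36 and 5.23 and 5.00, 5.08 and 5.00 in Tlr779. All 3 of its log2 changes were below 0, from -0.37 to -0.20. In each response its groups did not overlap, as held for 80.1%, 71.2% and 67.8% of all tested genes.

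eIF3 is the largest factor and the platform on which the small subunit meets the mRNA. Of its 12 tested subunits, 7 rose with CpG in Tlr9het and the same number in Tlr997, and 6 rose with CL097. The shares of all tested genes that rose were 29.7%, 29.6% and 22.7%. Eif3b, which encodes the scaffold subunit, had the largest rise in Tlr9het. It went from 8.48, 8.49 and 8.57 log2 CPM to 9.74, 9.71 and 9.74 with CpG, from 8.61, 8.66 and 8.60 to 9.56, 9.59 and 9.54 in Tlr997 and from 8.58, 8.65 and 8.53 to 9.44, 9.43 and 9.36 in Tlr779. The groups were far apart, and the rises were 2.33-fold (log2 1.22 ± 0.04 SE, adjusted p = 3.9e-11), 1.92-fold and 1.77-fold. Eif3c went from 9.28, 9.298 and 9.31 to 10.49, 10.46 and 10.45 in Tlr9het, from 9.27, 9.35 and 9.26 to 10.30, 10.38 and 10.21 in Tlr997 and from 9.26, 9.36 and 9.24 to 9.83, 9.83 and 9.87 in Tlr779, or 2.26-fold, 2-fold and 1.47-fold.

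Structural work divides eIF3 into modules, and the subunits were set against them after their values had been seen, so no test is given. The subunits a, b, g and i form one module, and all 4 transcripts rose in all 3 responses, with log2 changes of 0.81, 1.22, 1.16 and 1.04 in Tlr9het. In the module of c, d, e, k and l, Eif3c, Eif3d and Eif3l rose with CpG (1.17, 1.11 and 0.75 in Tlr9het), while Eif3e and Eif3k were called in none (0.12 and -0.13). In the module of f, h and m no transcript rose. Eif3m missed the threshold (0.48 in Tlr9het, 0.49 in Tlr997 and 0.33 in Tlr779), though not without CpG replicate 1 in Tlr9het (0.51) or resting replicate 1 in Tlr997 (0.52). Eif3h was lower by a little in all 3 (from -0.24 to -0.17). Eif3f fell in Tlr997, from 8.60, 8.50 and 8.51 to 8.10, 8.04 and 7.92 log2 CPM (1.44-fold lower, log2 -0.52 ± 0.06 SE, adjusted p = 6.6e-06), though the call was lost without replicate 1 at rest (-0.49) or replicate 3 with CpG (-0.47). Its values were 8.28, 8.43 and 8.50 and 8.07, 8.06 and 8.03 in Tlr9het and 8.67, 8.93 and 8.68 and 8.37, 8.49 and 8.36 in Tlr779. Those groups did not overlap either, but the log2 changes of -0.35 and -0.35 were under the fold threshold. The 95% intervals of Eif3l (0.62 to 0.88) and Eif3m (0.38 to 0.58) in Tlr9het lay side by side, so the subunits that rose and those that did not were not 2 well separated sets.

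Among the factors that tune start codon choice, the genes of eIF1A rose in all 3 responses. Eif1a and its X-linked homolog Eif1ax encode forms of eIF1A, which sits in the ribosomal A site during scanning. Eif1a went from 6.88, 6.89 and 6.93 log2 CPM to 8.35, 8.45 and 8.45 with CpG in Tlr9het, from 6.93, 7.07 and 6.65 to 8.35, 8.49 and 8.46 in Tlr997 and from 6.84, 6.94 and 6.73 to 8.11, 8.05 and 7.999 with CL097. It rose 2.86-fold, 2.93-fold and 2.32-fold, and Eif1ax rose 2.5-fold, 2.25-fold and 1.89-fold. Eif1ad, whose protein has an eIF1A-like domain and acts in small subunit maturation, read 5.75, 5.80 and 5.84 and 7.24, 7.28 and 7.24 in Tlr9het, 5.95, 5.95 and 5.93 and 7.07, 7.18 and 7.05 in Tlr997, and 5.67, 5.90 and 5.80 and 6.70, 6.64 and 6.47 in Tlr779, which was 2.74-fold, 2.23-fold and 1.76-fold. In Eif1a, Eif1ax and Eif1ad no resting group overlapped the stimulated group of the same genotype.

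Eif1 encodes the factor that keeps the ribosome scanning until a good start codon is met. It stood at 7.96, 8.01 and 8.02 log2 CPM at rest and 8.59, 8.54 and 8.46 with CpG in Tlr9het, at 8.06, 8.01 and 7.84 and 8.38, 8.51 and 8.40 in Tlr997, and at 8.06, 8.07 and 7.999 and 8.08, 8.05 and 8.05 in Tlr779. It was called only in Tlr9het (1.45-fold). In Tlr997 the change of 0.46 passed the threshold only without replicate 1 at rest (0.50), and with CL097 it was 0.01 (95% interval -0.12 to 0.14). Eif1b, its paralog, was called in none, at 4.68, 5.00 and 4.96 and 4.83, 4.87 and 4.83 in Tlr9het, 5.20, 5.07 and 5.09 and 4.74, 4.92 and 4.98 in Tlr997, and 4.77, 5.10 and 5.04 and 4.35, 4.61 and 4.66 in Tlr779. Its log2 changes were -0.04, -0.24 and -0.42, the last being past the threshold without resting replicate 1 (-0.52).

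The factors of subunit joining rose together. Eif5 encodes the GTPase activator of eIF2. It read 9.50, 9.40 and 9.38 log2 CPM and 10.08, 10.09 and 10.04 with CpG in Tlr9het, 9.39, 9.51 and 9.46 and 10.04, 10.24 and 10.02 in Tlr997, and 9.34, 9.40 and 9.22 and 9.79, 9.67 and 9.70 in Tlr779. The rise was 1.56-fold and 1.57-fold with CpG, and the change of 0.40 with CL097 was under the fold threshold. Eif5b, the GTPase that joins the large subunit, rose 1.52-fold, 1.64-fold and 1.64-fold. Eif6, which keeps free large subunits apart and takes part in making them, went from 6.30, 6.41 and 6.51 to 7.57, 7.57 and 7.68 in Tlr9het, from 6.48, 6.63 and 6.27 to 7.56, 7.70 and 7.51 in Tlr997 and from 6.53, 6.58 and 6.56 to 7.44, 7.28 and 7.299 in Tlr779, or 2.29-fold, 2.19-fold and 1.72-fold without overlap.

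eIF5A carries hypusine, a residue made from the polyamine spermidine, and helps the ribosome through difficult peptide bonds. Eif5a had the highest level per length of all members in resting Tlr9het cells, at 308 CPM per kb, and rose to 753. Its values were 9.44, 9.53 and 9.57 log2 CPM at rest and 10.76, 10.80 and 10.86 with CpG in Tlr9het, 9.56, 9.78 and 9.64 and 10.999, 10.97 and 11.02 in Tlr997, and 9.60, 9.73 and 9.61 and 10.78, 10.46 and 10.43 with CL097 in Tlr779. All groups were apart, and the rises were 2.44-fold, 2.52-fold and 1.87-fold. Its paralog Eif5a2 was far lower, at 3.70, 4.07 and 3.95 and 3.49, 3.61 and 3.63 in Tlr9het, 3.96, 3.98 and 3.85 and 3.63, 3.62 and 3.95 in Tlr997, and 4.08, 4.53 and 4.09 and 3.21, 3.44 and 2.87 in Tlr779. It fell 2.08-fold with CL097 (log2 -1.06 ± 0.19 SE, adjusted p = 0.0018) and was not called with CpG (-0.33 and -0.20).

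Genes around hypusine and polyamine synthesis were a list of 9, of which 7 were tested. With CpG, 6 rose and 1 fell in both genotypes, and with CL097 4 rose and 1 fell. Of all genes, 29.7% rose and 28.2% fell in Tlr9het, 29.6% and 26% in Tlr997, and 22.7% and 23.6% with CL097. The median log2 change was 1.36 in Tlr9het and 0.97 in Tlr997, beside 0.04 and 0.07 over all genes. Srm, spermidine synthase, changed by 2.86 in Tlr9het, 2.66 in Tlr997 and 2.13 in Tlr779. Odc1, the first enzyme of polyamine synthesis, changed by 1.67, 1.43 and 1.60. Sat1, which starts polyamine breakdown, was the one that fell (-0.96, -1.05 and -0.52). Azin1, which protects ornithine decarboxylase from its inhibitor and is named after its values were seen, was the 1 gene of the list called between genotypes. With CpG its level was lower in Tlr997 (log2 -0.52 ± 0.08 SE, adjusted p = 0.0019), and its response was smaller in Tlr997 (-0.56 ± 0.11 SE, adjusted p = 0.021). Of all genes, 2.72% were called between the genotypes with CpG and 1.54% in the difference of responses.

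The 6 pairs of paralogs were compared within each library, which removes any scaling shared by the library, by the difference of their log2 CPM. The pairs and the order of their genes were chosen with the responses known, so the shifts are given as a description with no test. The mean shift over both genotypes was 1.57 for Eif4a1 against Eif4a2, 1.41 for Eif4e against Eif4e3, 1.48 for Eif4g1 against Eif4g3, 2.93 for Eif4ebp1 against Eif4ebp2, 0.64 for Eif1 against Eif1b and 1.57 for Eif5a against Eif5a2. The difference Eif4ebp1 minus Eif4ebp2 shows the largest shift. It was -3.06, -3.12 and -2.94 in resting Tlr9het libraries and 0.20, 0.14 and 0.11 with CpG, and -2.92, -2.37 and -3.14 and -0.43, 0.10 and -0.10 in Tlr997. Scaled to exon length, Eif4ebp1 went from 8.84 to 53.1 CPM per kb in Tlr9het and Eif4ebp2 from 27.5 to 18.2, so the order of the pair was reversed with CpG. With CL097 it went from -3.25, -3.25 and -3.15 to -1.54, -1.97 and -2.13, and per length Eif4ebp1 remained the lower of the pair (16.8 against 23.4 CPM per kb).

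**Figure D4:**
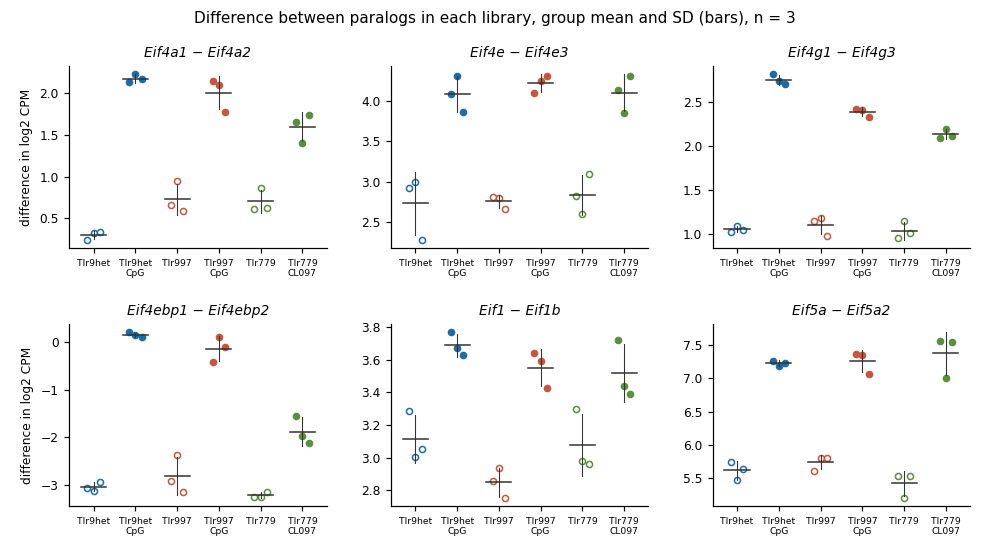
Difference in log2 CPM between 2 paralogs in each library (points), with the mean and SD of each group of 3 (bars). Open points are unstimulated and filled points had CpG or CL097. In all 6 panels the filled points lie above the open points of the same genotype.

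Promoter sequence was looked at because many members rose together. RefSeq (GRCm38.p6) gave a promoter window of 250 bases upstream of an annotated start for 40 of the 53 members. The E-box CACGTG, a motif bound by MYC with MAX and by related factors and identical on both strands, was in the window of 9 of the 40 (22.5%), against 1854 of 27025 genes of any type (6.86%). It was in 4 of the 22 members with a window that rose with CpG in Tlr9het, in 0 of the 4 that fell and in 5 of the 13 tested ones that were not called. These counts are small, and a part of the E-box in the rise was not tested. TGATGNAA, searched on both strands as the composite element that ATF4 binds with C/EBP proteins, was in 0 of the 40 windows and in 3.91% of all genes. The E-boxes printed below lie upstream of an annotated start of 4 genes that rose in all 3 responses and of 2 eIF3 genes that rose in none. Those of Eif1b, Eif4h and Eif5a2, also not called with CpG in Tlr9het, and another one of Eif5a are not printed. The following stretches of 30 bases show the E-box in capitals, read 5′ to 3′ on the strand of the gene.
Eif4e, chr3:138527192-138527221, plus strand: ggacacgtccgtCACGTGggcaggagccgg
Eif4e, chr3:138527028-138527057, plus strand: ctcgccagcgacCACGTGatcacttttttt
Eif4a1, chr11:69672595-69672624, minus strand: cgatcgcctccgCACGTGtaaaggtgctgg
Eif4g1, chr16:20672661-20672690, plus strand: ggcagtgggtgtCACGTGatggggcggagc
Eif5a, chr11:69921443-69921472, minus strand: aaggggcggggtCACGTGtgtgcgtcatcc
Eif3f, chr7:108934335-108934364, plus strand: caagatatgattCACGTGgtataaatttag
Eif3k, chr7:28981915-28981944, minus strand: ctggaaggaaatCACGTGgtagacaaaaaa
The E-box ended 59 bases before the annotated start in the first Eif4e stretch and 223 in the second, both in the same window. The distance was 49 bases in Eif4g1, 69 in Eif5a, 184 in Eif4a1, 63 in Eif3f and 39 in Eif3k. For Eif4e and Eif5a the start used lies inside the gene. The annotated Eif4e gene begins at 138526191, and Eif5a, on the minus strand, begins at 69921958. A match of letters does not show that a factor is bound there, and binding was not measured.

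Genes that act on the initiation factors were called in both directions, in shares to be read against the 29.7% of all genes that rose and the 28.2% that fell in Tlr9het. Of 11 kinases, phosphatase subunits and sensors of the eIF2α pathway, 3 rose and 3 fell in Tlr9het, 4 rose and 3 fell in Tlr997, and 4 rose and 2 fell with CL097, near the background. Their median log2 change in Tlr9het was 0.26. Ppp1r15a, an adaptor that brings phosphatase to eIF2α, changed by 1.36 in Tlr9het, and Atf4, the factor translated when eIF2α is phosphorylated, by 1.22. Eif2ak3, the eIF2α kinase of the endoplasmic reticulum, changed by -2.19, and Ppp1ca, a phosphatase subunit, by -1.54. All 4 were called in the same direction in all 3 responses.

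Of 14 tested genes of mTORC1 and MNK signaling, 5 rose and 3 fell with CpG in each genotype, and 3 rose and 3 fell with CL097, again near the background, with a median of 0.10 in Tlr9het. Sesn2, a leucine sensor upstream of mTORC1, had a log2 change of 2.32 in Tlr9het, and its homolog Sesn1 one of -3.33. Mknk2, a kinase of eIF4E, changed by -2.09, and Akt1s1, a subunit of mTORC1, by 0.77. Among 11 cap and poly(A) partners and repressors, 4 rose and 4 fell in Tlr9het, 2 and 4 in Tlr997, and 3 and 4 in Tlr779, with a median of 0.06 in Tlr9het. Larp1, which binds the caps of ribosomal protein mRNAs, changed by 1.59 and Pabpc4, a poly(A)-binding protein, by 0.95 in Tlr9het. The repressor Paip2, which displaces poly(A)-binding protein, changed by -1.69, and Cyfip1, which can hold eIF4E in a repressed state, by -1.22.

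Of 6 genes of recycling and noncanonical initiation, 3 rose and 0 fell with CpG in each genotype, and 1 rose with CL097, and the median was 0.52 in Tlr9het. Abce1, which splits ribosomes after termination, changed by 1.22 in Tlr9het and Denr, which works with Mcts1 in recycling and reinitiation, by 0.89. Of 11 tested elongation and release factors, 5 rose and 2 fell with CpG in each genotype, and 4 rose and 1 fell with CL097, and the median was 0.43 in Tlr9het. Pelo, a ribosome rescue factor, changed by 2.24 and Etf1, the release factor eRF1, by 1.34, whereas the elongation factor Eef2 changed by -0.85 and its kinase Eef2k by -0.61. Cytoplasmic ribosomal protein genes did not follow the initiation factors: of 75 tested, 5 rose and 5 fell in Tlr9het, 5 and 6 in Tlr997, and 3 and 0 in Tlr779, with median log2 changes of -0.21, -0.23 and -0.07. Among all tested genes 29.7% rose and 28.2% fell in Tlr9het, 29.6% and 26% in Tlr997, and 22.7% and 23.6% in Tlr779.

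The replacement of the TIR domain was then asked about through the comparison of Tlr997 with Tlr9het. Without agonist, no member was called by limma, and 13 of 50 had an unadjusted p under 0.05 (26%, against 10.8% of all genes), 11 of them higher in Tlr997. Of all genes tested, 0.0174% were called. With CpG, 1 member was called, against a background of 2.72%, and 10 had an unadjusted p under 0.05 (20% against 19% of all genes). The difference between the CpG responses was called for the same gene and no other (background 1.54%), and 10 members had an unadjusted p under 0.05 (20% against 16% of all genes). The median difference between the responses was -0.06 over the 46 factor genes and 0.01 over all genes. No gene of an initiation factor was therefore called between the genotypes. Eif3b had the lowest adjusted p of them: with CpG it was lower in Tlr997 by a log2 difference of -0.17 ± 0.04 SE (adjusted p = 0.043), and its response was smaller by -0.28 ± 0.06 (adjusted p = 0.041), both under the fold threshold. By size the largest differences of response among the factor genes were those of Eif2b3 (-0.50 ± 0.17 SE, adjusted p = 0.17), Eif4ebp1 (-0.46 ± 0.20 SE, adjusted p = 0.28) and Eif4a2 (0.45 ± 0.17 SE, adjusted p = 0.21). Eif2b3 was called without replicate 1 of unstimulated Tlr997 (-0.64, adjusted p = 0.031).

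**Figure D5:**
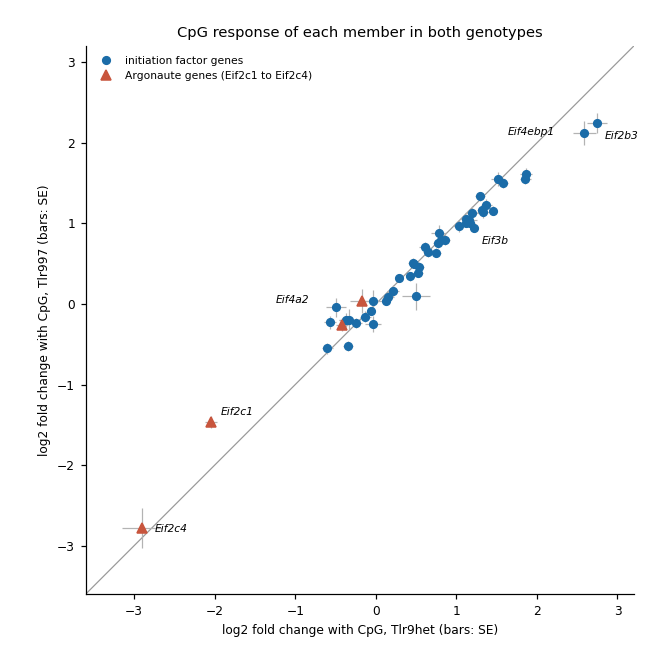
Log2 fold change with CpG in Tlr9het (x axis) and in Tlr997 (y axis) for the 50 tested members, with bars of 1 SE and the line of equal response. Eif2c1 (triangle) lies above the line at -2.05 and -1.46, by 0.58, and among the initiation factor genes (circles) Eif2b3 and Eif4ebp1 lie below it and Eif4a2 above it by 0.45 to 0.50.

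The member called between the genotypes was Eif2c1 (Ago1), which encodes an Argonaute protein and is not an initiation factor. It stood at 7.63, 7.67 and 7.71 log2 CPM in resting Tlr9het cells and at 5.69, 5.56 and 5.63 with CpG, at 7.71, 7.53 and 7.54 and 6.23, 5.98 and 6.19 in Tlr997, and at 7.81, 7.86 and 7.93 and 6.60, 6.79 and 6.78 in Tlr779. It fell 4.14-fold in Tlr9het (log2 -2.05 ± 0.07 SE), 2.76-fold in Tlr997 and 2.21-fold with CL097. The resting groups of both genotypes overlapped, whereas with CpG all 3 Tlr997 libraries lay above all 3 Tlr9het libraries, by 0.51 ± 0.07 SE (adjusted p = 0.0017). The CpG groups of the 2 genotypes did not overlap for 30% of all tested genes. The fall was smaller in Tlr997 by 0.58 ± 0.11 SE (adjusted p = 0.014). Both calls depended on settings: the first was lost without Tlr997 replicate 1 or 3 or Tlr9het replicate 2 with CpG (0.46, 0.48 and 0.47, just under the fold threshold), and the second without the filter on low values (adjusted p = 0.065) or without a trend of the variance (adjusted p = 0.053).

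Eif2c1, Eif2c3 and Eif2c4 (Ago4) lie close together on chromosome 4, with Eif2c3 the nearer to Eif2c1. Eif2c4 fell further than Eif2c1, from 3.53, 3.58 and 3.59 to 0.89, 0.33 and 0.78 log2 CPM in Tlr9het. It went from 3.50, 3.67 and 3.02 to 0.63, 0.99 and 0.24 in Tlr997 and from 3.76, 3.61 and 3.97 to 1.34, 1.99 and 2.04 in Tlr779. These were falls of 7.46-fold (log2 -2.90 ± 0.25 SE, adjusted p = 1.7e-07), 6.85-fold and 3.97-fold, with no overlap between groups. Eif2c2 (Ago2), the Argonaute that can cut its target, and Eif2c3 (Ago3) were called in none of the responses. Their log2 changes were -0.42, -0.26 and 0.19 for Eif2c2, and -0.17, 0.04 and -0.13 for Eif2c3.

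Some members share sequence with other genes, which limits their values. Of the 53 members, 11 have exon bases in common with another protein-coding gene in the GENCODE annotation of the same build, 9 of them on the opposite strand alone, and it is not given in the sources used here whether the counting used strand. Among them are Eif2a, Eif4a2, Eif1ad and Eif5b, which were called or compared above. Eif1, Eif4a1 and Eif5a also have processed copies in the genome, and reads that fit both could be lost or shared. Whether this happened was not tested.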

How the data were processed

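RNA of the 18 libraries came from B cells cultured for 4 h. Stranded mRNA libraries were sequenced from both ends by the authors, who aligned the reads to mm10 with STAR (2.6.1a) and counted them per gene with featureCounts (Subread 2.0.1). FastQC 0.11.7 and Trim Galore 0.6.5 are named in the submitters' processing notes too. The authors deposited log2 values, namely CPM after quantile normalization and the voom transformation, which adds 0.5 to each count, so changes of low genes are understated. The files hold no counts, depth is unknown, and no counting interval was computed. Of 6614 genes below -4 log2 CPM throughout the Tlr7-/- arm, 6306 showed 1 value per replicate number, and in 822 it differed between numbers. An offset per gene and number thus seems to have been removed by a step that is not given in the sources used here. The fits without a replicate block do not allow for such a step, so their SE and p-values may be too small. Correlations between same-numbered libraries may be affected too.

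Genes above 0 log2 CPM in at least 3 fitted libraries were tested with limma (3.58.1, R 4.3.3) on the deposited log2 values, letting the variance depend on the mean. The study's methods used voom and limma, and limma on the deposited values took that place. The Tlr7-/- arm was 1 model of 12 libraries with a mean per group (11494 genes) and the CL097 response used 6 libraries (11082 genes). Adjusted p-values are Benjamini-Hochberg over all genes tested. Called genes had an adjusted p under 0.05 with a log2 fold change beyond 0.5 in either direction. Paralog differences are given without the planned permutation test, since the pairs were chosen with results known. The main limma fit of each comparison was tested on simulated data with independent noise in each library. Those data held no offset per replicate number, and the alternative fits were not simulated.

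Members and lists were chosen with earlier results of these data known. Values in every library are given for the 2 members of each complex with the largest change with CpG in Tlr9het, for members called between genotypes or against their complex, and for the paralog pairs. Eif4b and Eif4h, the only members of their group, are both given. From the other lists at most 2 raised and 2 lowered genes are named. The exon overlaps, the levels per kb and the ribosomal protein counts were added after the data were seen. Levels per kb divide the group mean CPM by the union of exons in GENCODE vM21. One B cell marker of the list is not reported here. All 53 members matched RefSeq (GRCm38.p6), 49 by symbol and 4 by an older symbol.

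Whether replicate numbers pair libraries was checked through the correlation of deviations from group means between same-numbered libraries, over all genes tested. It was 0.51, 0.29 and 0.51 in Tlr9het, 0.25, 0.49 and 0.33 in Tlr779, and 0.37, 0.083 and 0.025 in Tlr997. Same-numbered libraries thus looked like pairs in Tlr9het and Tlr779 but not clearly in Tlr997. The main fits had no replicate block and treated no libraries as pairs. A block, with Tlr997 included, was used only as an alternative. Nothing states that a number marks a mouse, so p-values measure the spread between these samples. Alternatives were the filter, the pseudocount, centring, the fold threshold, the variance trend, the libraries in the model, a replicate block and leaving out each library.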

Additional observations from a re-analysis of the deposited data

Results flagged for a closer look

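One member was set apart because its CpG response differed between the genotypes by a test of the difference itself. Eif2c1 (Ago1) fell by 2.05 on the log2 scale in Tlr9het and by 1.46 in Tlr997, so the fall was smaller by 0.58 ± 0.11 SE in Tlr997 (adjusted p = 0.014 in limma). The summed level of the B cell markers also stayed higher with CpG in Tlr997 (2025 to 2482 CPM) than in Tlr9het (1155 to 1211 CPM), and its part in the result was not tested. No group of 4 or more libraries existed, so single libraries were not tested as standing apart.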

How the results depend on the processing

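The counts of members called with agonist moved by more than 1.5 times with the fold threshold alone: at a log2 change of 1 they were 20 in Tlr9het, 18 in Tlr997 and 9 with CL097, as the stricter threshold requires larger changes. Eif2c1, the 1 member called between genotypes with CpG, was lost (0 called) at that threshold and with log2(CPM + 1). The 1 call in the difference of responses was lost (0 called) at that threshold, without the filter on low values and without the variance trend. Leaving out each library in turn gave 31 to 34 members in Tlr9het, 29 to 30 in Tlr997 and 25 to 28 with CL097. It gave 0 between genotypes without agonist, 0 to 1 with CpG and 1 to 2 in the difference of responses, the second being Eif2b3 (-0.64, adjusted p = 0.031) without replicate 1 of unstimulated Tlr997. A fit with the replicate block called 31 members in Tlr9het, 30 in Tlr997, 25 with CL097, 0 between genotypes at rest, 1 with CpG and 1 in the difference, so it changed no count. The block over both genotypes, an alternative chosen after seeing the data, gave 31, 30 and 1. Of 4550 values of single members under the alternatives, 4480 kept their side of the threshold, 51 were no longer called, 19 became called and 0 reversed a call, while values that were not called could change sign. Where values are not called, 3 libraries a group and an unknown depth limit what could be seen.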
